A study of Mus musculus with 24 samples.

Results

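The genes described here carry glucose into the cell, break it down to pyruvate and lactate, or set how much pyruvate enters the mitochondria: Slc2a1, Hk1, Hk2, Pfkl, Pfkp, Aldoa, Pkm, Ldha, Pdk1 and Pdk4. They were taken from the deposited table of log2 expression values by gene symbol, with 1 transcript cluster (the array's unit for a gene) per gene, the one with the highest mean over the 24 arrays. Of the 10 genes, 9 were found. Aldoa was represented only by a cluster shared with a second gene and was dropped. The 9 genes were among 22180 named genes, and all 9 were among the 14892 tested, those that reached the median of their array in at least 3 arrays. Slc2a1 and Pdk1 each had a second, dimmer cluster, which was not kept. Its mean over the 24 arrays was 5.131 for Slc2a1, against 8.909 for the kept cluster, and 2.005 for Pdk1, against 6.25.

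The cells were calvarial osteoblasts, bone-forming cells grown out of the skull vault of mice 7 to 10 days old and used at passage 2. One genotype was wild-type C57BL/6J and the other carried a knockout of β-arrestin 2 (gene Arrb2), an adaptor that switches off signalling of G protein-coupled receptors, on the C57BL/6J background. Total RNA was taken from each genotype on days 2, 5, 10 and 28 of culture, with 3 arrays in each of the 8 groups, and the replicates are described as separate preparations of cells. Differentiation medium, supplemented with ascorbic acid at 50 mg/L and β-glycerophosphate at 5 mM, was started on day 3 in every culture, so the day 2 cells had not received it. A later day therefore differed from day 2 both in time and in medium, and the 2 cannot be told apart.

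Glucose enters most cells through the transporter GLUT1, the product of Slc2a1, and is trapped by hexokinases (Hk1, Hk2), which phosphorylate it. Phosphofructokinase, made of subunits that include those of Pfkl and Pfkp, commits the sugar to glycolysis, pyruvate kinase (Pkm) makes pyruvate, and the A subunit of lactate dehydrogenase (Ldha) turns pyruvate into lactate. The pyruvate dehydrogenase kinases, among them Pdk1 and Pdk4, phosphorylate and inhibit the mitochondrial complex that would otherwise oxidise pyruvate. Osteoblasts are known for taking up much glucose and releasing much of it as lactate, and several of these genes are known targets of hypoxia-inducible factor and of Myc, while Pdk4 is a known target of the PPAR and FoxO factors in fasting.

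Promoter sequences are shown for 4 of the genes, because these genes moved with culture time and stand at the entry (Slc2a1, Hk2) and at the pyruvate branch (Ldha, Pdk1) of the pathway. The sequences are from RefSeq on GRCm38.p6 and run from 250 bases before the listed start of the gene to 50 bases after it, written 5′ to 3′ on the strand of the gene. Capitals mark matches to ACGTG or GCGTG, the core letters of the motif of hypoxia-inducible factor, on either strand; a match on the other strand reads CACGT or CACGC, and the matches can overlap. Slc2a1 lies on the plus strand at chr4:119108495-119108794, Hk2 on the minus strand at chr6:82774405-82774704, and Ldha on the plus strand at chr7:46845554-46845853. Pdk1 lies on the plus strand at chr2:71872974-71873273, and for Ldha and Pdk1 the promoter shown is the first listed of 2 starts.
Slc2a1: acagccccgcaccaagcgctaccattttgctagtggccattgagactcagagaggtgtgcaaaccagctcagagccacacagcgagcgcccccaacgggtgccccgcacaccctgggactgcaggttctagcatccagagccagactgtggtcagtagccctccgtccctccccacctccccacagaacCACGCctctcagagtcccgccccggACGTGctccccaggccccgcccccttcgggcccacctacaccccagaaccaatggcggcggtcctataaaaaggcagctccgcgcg
Hk2: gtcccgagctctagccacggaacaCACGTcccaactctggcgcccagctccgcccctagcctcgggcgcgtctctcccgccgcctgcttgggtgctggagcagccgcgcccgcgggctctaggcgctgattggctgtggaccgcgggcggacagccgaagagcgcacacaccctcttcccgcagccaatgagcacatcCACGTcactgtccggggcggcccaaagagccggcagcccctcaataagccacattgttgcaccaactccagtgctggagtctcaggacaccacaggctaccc
Ldha: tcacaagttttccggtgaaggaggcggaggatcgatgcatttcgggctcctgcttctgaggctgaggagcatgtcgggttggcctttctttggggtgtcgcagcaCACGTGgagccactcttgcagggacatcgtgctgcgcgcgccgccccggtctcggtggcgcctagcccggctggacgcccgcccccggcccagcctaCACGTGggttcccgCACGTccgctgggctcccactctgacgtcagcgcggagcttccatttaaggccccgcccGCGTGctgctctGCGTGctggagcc
Pdk1: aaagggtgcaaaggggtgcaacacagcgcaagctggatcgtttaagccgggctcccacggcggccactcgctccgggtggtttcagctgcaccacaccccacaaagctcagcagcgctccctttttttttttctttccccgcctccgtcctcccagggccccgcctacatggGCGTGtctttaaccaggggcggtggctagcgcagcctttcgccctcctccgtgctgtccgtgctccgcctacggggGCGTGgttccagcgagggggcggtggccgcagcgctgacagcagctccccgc
The Slc2a1 window held ACGTG 36 bases before the start and GCGTG 61 bases before it, and the Hk2 window held ACGTG 226 and 52 bases before the start. In the Ldha window ACGTG matched 5 times, at 145, 144, 48, 47 and 34 bases before the start, where the neighbouring matches are the 2 strands of the same palindromic letters, and GCGTG matched at bases 26 and 38 after the start. The Pdk1 window held GCGTG 78 and 2 bases before the start. Over the 13 listed promoters of the 9 genes, 5 held ACGTG, against 19.6% of all 32851 promoters of this length, and 8 held GCGTG, against 32.4%. Either motif stood in 10 of the 13, against 43.8% of all promoters, and each of the 9 genes had it in at least 1 of its promoters, against 46.7% of 27025 genes. The matches describe letters in these windows and say nothing of whether a factor was bound.

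Array values are on the log2 scale of RMA, the Affymetrix method that corrects background, quantile-normalises the arrays and summarises the probes of a cluster. A shift common to most genes is removed by it, and a value is relative to the other genes of its array. The values of different genes come from different probes, so levels were compared only within a gene. Arrays of a group correlated at 0.970 to 0.984 and array medians lay between 4.55 and 4.72. The Arrb2 cluster was higher on arrays labelled knockout, by 1.00 as the mean over days (adjusted p = 6.44e-06), with group means of 6.62 to 7.09 in the labelled knockout and 5.11 to 6.44 in the labelled wild type. With the arrays of each replicate number averaged within a genotype, that call was lost (adjusted p = 0.279). The labels do not say whether a number marks the same preparation on every day. Where its probes lie relative to the deleted part is not given in the sources used here, so the cluster is no check of the labels, and the genotypes are called labelled wild type and labelled knockout. Beyond osteoblast markers, of which Runx2 and Spp1 had no single-gene cluster, the cultures held adipocyte and macrophage marker RNA, whose levels stand below beside the results. In such bulk RNA, fewer cells of a type and less RNA per cell cannot be told apart.

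Most of the uptake and glycolysis genes were lower late in culture than on day 2, in both labelled genotypes. By day 10 in the labelled wild type, the transporter Slc2a1, read from its brighter cluster, and the hexokinase Hk2 were about 3-fold lower than on day 2, and Pkm was 2.06-fold lower. Ldha, Pfkl and Pfkp were 1.55-fold to 1.80-fold lower. The kinase Pdk1 was 1.52-fold higher, while Hk1 and Pdk4 did not pass the test. The differences were tested with limma over all 14892 genes, with Benjamini-Hochberg adjustment, and a gene with an adjusted p under 0.05 is called changed.

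In the labelled wild type on day 10, 6 of the 9 genes were lower and 1 was higher, against 30.7% of all tested genes called in either direction (16.2% lower, 14.4% higher). Their median log2 difference was -0.77, against -0.04 over all tested genes. On day 28, 5 genes were lower and 1 was higher, with a median of -0.69 against -0.03, where 38.8% of all genes were called (19.2% lower, 19.6% higher). In the labelled knockout 6 genes were lower on day 10, with a median of -0.54 against -0.01 and a background of 24.6% (13.6% lower). With any 1 of the 6 arrays left out only 4 of the 9 genes were called, and not always the same 4. Slc2a1, Hk2 and Pkm were lower each time. The remaining call was Ldha, Pfkl, Pfkp or, without replicate 2 of day 2, Pdk1, which was higher. On day 28 in the labelled knockout 6 were lower and 1 was higher, with a median of -0.75 against -0.02 and a background of 38% (18.6% lower, 19.4% higher). The day 10 and day 28 comparisons of a genotype share its day 2 arrays. Arrays of the compared days did not overlap, all being lower than on day 2, for 6 of the 9 genes on either day in the labelled wild type, where 21.9% of all tested genes on day 10 and 27% on day 28 did so. The same held in the labelled knockout for 5 genes on day 10 and 6 on day 28 (23.5% and 24.8% of all genes).

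**Figure D1:**
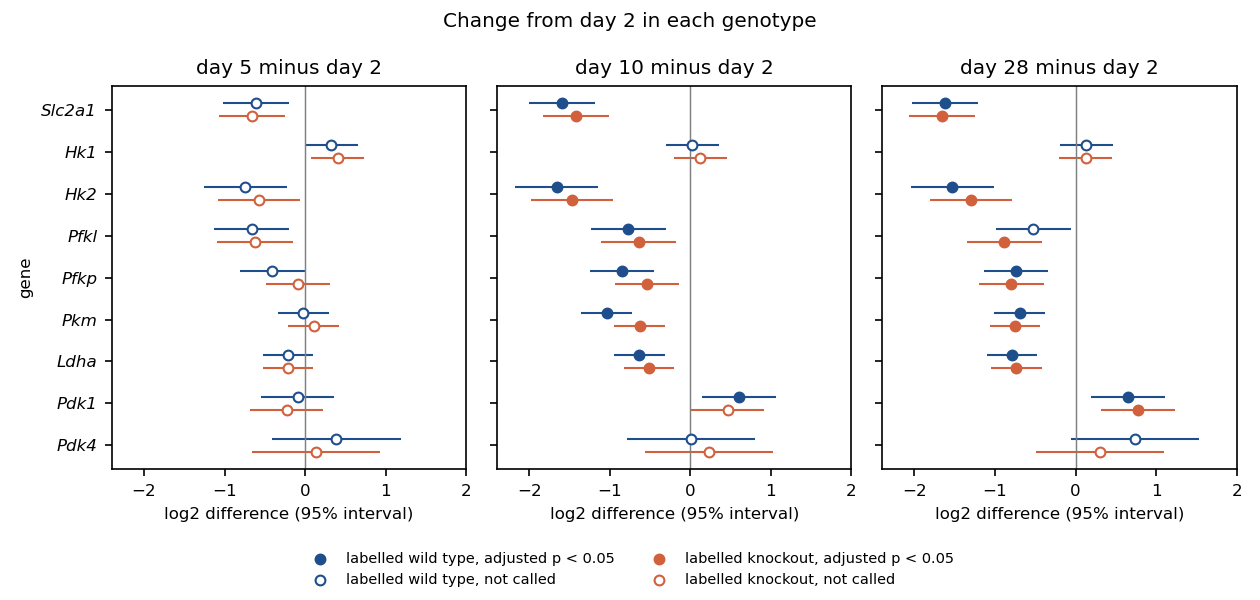
Log2 difference from day 2 (x axis, with the 95% interval from limma) for each of the 9 genes (y axis) on days 5, 10 and 28, in the labelled wild type (blue) and the labelled knockout (orange), 3 arrays a group; filled points have an adjusted p under 0.05. On day 5 no point is filled, while on days 10 and 28 Slc2a1 and Hk2 lie farthest to the left in both genotypes, between -1.30 and -1.66, and Pdk1 lies to the right of 0.

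Slc2a1, the basal glucose transporter, stood highest on day 2. In the labelled wild type its log2 value, given here and below in the order of replicates 1, 2 and 3, was 9.90, 10.10 and 9.61 on day 2, 8.95, 9.20 and 9.65 on day 5, 7.89, 8.44 and 8.49 on day 10, and 8.29, 8.32 and 8.13 on day 28. The labelled knockout gave 9.92, 9.92 and 9.67, then 9.19, 9.45 and 8.90, then 8.55, 8.32 and 8.37, and finally 8.34, 8.34 and 7.88. Every array of days 10 and 28 lay below every array of days 2 and 5, in both genotypes, and only replicate 3 of day 5 in the labelled wild type reached the day 2 range. From day 2 to day 10 Slc2a1 fell by 1.59 (SE 0.20, adjusted p = 6.37e-06), a 3.02-fold difference, in the labelled wild type and by 1.42 (adjusted p = 4.01e-05), or 2.68-fold, in the labelled knockout. On day 28 the differences from day 2 were -1.63 (adjusted p = 2.6e-06) and -1.65 (adjusted p = 3.01e-06), 3.09-fold and 3.15-fold. These 4 calls held under every alternative setting and with any single array left out, but their size depended on the cluster. With both Slc2a1 clusters averaged, the differences were -0.999 on day 10 and -0.98 on day 28 in the labelled wild type, and -0.87 and -1.09 in the labelled knockout.

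The hexokinases parted. Hk2, the inducible form of muscle and fat, was at 7.93, 8.57 and 8.14 on day 2 in the labelled wild type, at 6.90, 7.53 and 7.98 on day 5, at 6.16, 6.79 and 6.72 on day 10 and at 6.39, 6.83 and 6.84 on day 28. Labelled knockout arrays gave 7.96, 7.94 and 8.10, then 7.55, 7.72 and 7.00, then 6.56, 6.46 and 6.56, and lastly 6.66, 6.99 and 6.46. The day 10 and day 28 arrays again lay below all day 2 arrays. Hk2 fell by 1.66 (SE 0.25, adjusted p = 4.31e-05) by day 10 in the labelled wild type, a 3.16-fold difference, and by 1.47 (adjusted p = 0.000239) in the labelled knockout. On day 28 it was lower than on day 2 by 2.89-fold (adjusted p = 5.87e-05) and 2.45-fold (adjusted p = 0.000334), and these 4 calls held in every setting and with any array left out. Hk1, the form most tissues make, ranged only from 6.11 to 7.04 over the 24 arrays. Its group means were 6.50 ± 0.17 (SD, n = 3) on day 2 and 6.63 ± 0.09 on day 28 in the labelled wild type, and 6.59 ± 0.13 and 6.72 ± 0.18 in the labelled knockout, and day 2 and day 28 arrays overlapped. The day 28 difference of Hk1 was 0.13 in each genotype, with 95% intervals of -0.20 to 0.46 in both, and did not pass the test.

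The phosphofructokinase subunits were lower late in culture, with less certainty than the genes above. Pfkp, the platelet-type subunit, was at 9.25, 9.00 and 8.54 on day 2 in the labelled wild type, 8.70, 8.34 and 8.54 on day 5, 8.05, 8.18 and 8.03 on day 10 and 8.29, 8.17 and 8.13 on day 28. Its values in the labelled knockout were 8.94, 9.10 and 8.81, then 8.87, 9.02 and 8.68, then 8.51, 8.60 and 8.12, and lastly 8.42, 8.36 and 7.69. All day 10 and day 28 arrays lay below the day 2 arrays of their genotype. The differences from day 2 were -0.85 on day 10 (adjusted p = 0.00208) and -0.74 on day 28 (adjusted p = 0.00435) in the labelled wild type, and -0.54 (adjusted p = 0.0436) and -0.79 (adjusted p = 0.00257) in the labelled knockout. The day 10 call of Pfkp in the labelled knockout was lost on leaving out any of the 6 arrays except day 10 replicate 2, with adjusted p values of 0.06 to 0.196, and also with no filter on low genes (adjusted p = 0.0637) or after a further quantile normalization (adjusted p = 0.0551).

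Pfkl, the liver-type subunit, had a wide spread on day 2. It was at 8.74, 8.43 and 7.86 there in the labelled wild type, at 7.47, 7.78 and 7.79 on day 5, at 7.20, 7.81 and 7.71 on day 10 and at 7.84, 7.84 and 7.79 on day 28. The labelled knockout had it at 8.63, 8.80 and 7.80, at 7.66, 7.96 and 7.74, at 7.85, 7.72 and 7.72, and at 7.58, 7.40 and 7.59. Replicate 3 of day 2 stood low in both genotypes, close to the later days, and in the labelled knockout it was overlapped by day 10. Pfkl was lower than on day 2 by 0.77 on day 10 in the labelled wild type (adjusted p = 0.0126) and by 0.88 on day 28 in the labelled knockout (adjusted p = 0.00384). The labelled wild type's day 28 difference, -0.52, did not pass (adjusted p = 0.0713), and did with day 2 replicate 3 left out (adjusted p = 0.0133). With all arrays kept, it passed under 3 of 9 other settings (lowest adjusted p = 0.0095). These were each array centred on its median, a further quantile normalization and array weights. The labelled knockout's day 10 difference, -0.64, passed (adjusted p = 0.0415) but was lost on leaving out any 1 of 5 arrays, all but day 2 replicate 3 (adjusted p 0.063 to 0.202), with no filter (adjusted p = 0.0586), after a further quantile normalization (adjusted p = 0.0569) or with only the 2 groups fitted (adjusted p = 0.107). The day 10 call of the labelled wild type was lost without replicate 1 of day 2 (adjusted p = 0.0831) or of day 10 (adjusted p = 0.0756), and with only the 2 groups fitted (adjusted p = 0.0509).

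Pkm, which makes the M1 and M2 forms of pyruvate kinase that 1 cluster does not separate, was lower from day 10 on. In the labelled wild type it was at 12.01, 11.85 and 11.57 on day 2, 11.66, 11.78 and 11.92 on day 5, 10.56, 10.76 and 10.99 on day 10 and 11.08, 11.16 and 11.10 on day 28. The labelled knockout arrays stood at 11.93, 11.96 and 11.75, at 12.13, 12.07 and 11.77, at 11.32, 11.23 and 11.19, and at 11.08, 11.44 and 10.87. Days 2 and 5 overlapped, and every array of days 10 and 28 lay below them. Pkm was lower than on day 2 by 1.04 on day 10 (SE 0.15, adjusted p = 3.75e-05) and by 0.69 on day 28 (adjusted p = 0.00113) in the labelled wild type. The same differences in the labelled knockout were -0.63 (adjusted p = 0.00467) and -0.75 (adjusted p = 0.0006). None of these 4 calls was lost under another setting or with an array left out.

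Ldha was at 7.53, 7.47 and 7.36 on day 2 in the labelled wild type, 7.27, 7.07 and 7.38 on day 5, 6.88, 6.72 and 6.88 on day 10, and 6.73, 6.77 and 6.51 on day 28. Over the same days in the labelled knockout it was at 7.34, 7.55 and 7.47, at 7.26, 7.28 and 7.18, at 6.95, 6.73 and 7.13, and at 6.53, 7.14 and 6.49. All day 10 and day 28 arrays were below the day 2 arrays, with replicate 2 of day 28 in the labelled knockout standing above its fellows. Ldha fell by 0.63 by day 10 (SE 0.15, adjusted p = 0.00295) and by 0.79 by day 28 (adjusted p = 0.000323) in the labelled wild type, 1.55-fold and 1.72-fold. The labelled knockout differed from its day 2 by -0.51 on day 10 (adjusted p = 0.0156) and by -0.73 on day 28 (adjusted p = 0.000641), 1.43-fold and 1.66-fold. Its day 10 call was lost without replicate 2 of day 2 (adjusted p = 0.0598), replicate 3 of day 2 (adjusted p = 0.0503) or replicate 2 of day 10 (adjusted p = 0.0899).

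Pdk1, a kinase that holds pyruvate out of the mitochondrial complex, went the other way. It was at 6.32, 5.77 and 5.66 on day 2 in the labelled wild type, 5.91, 6.03 and 5.53 on day 5, 6.45, 6.46 and 6.65 on day 10 and 6.65, 6.41 and 6.65 on day 28. In the labelled knockout it was at 6.28, 6.45 and 5.39, at 5.60, 5.87 and 5.96, at 6.40, 6.60 and 6.52, and at 6.82, 6.65 and 6.98. The labelled wild type's day 10 and day 28 arrays all lay above its day 2 arrays, as did day 28 of the labelled knockout, whose day 10 overlapped day 2. Pdk1 rose by 0.60 by day 10 (SE 0.22, adjusted p = 0.0419) and 0.65 by day 28 (adjusted p = 0.0225) in the labelled wild type, and by 0.77 by day 28 in the labelled knockout (adjusted p = 0.00823), where day 10 gave 0.46 (adjusted p = 0.131, and 0.0457 without replicate 2 of day 2). These calls rested on few arrays and on the processing. The labelled wild type's day 10 call was lost on leaving out any array except day 2 replicate 1 (adjusted p 0.0644 to 0.168), its day 28 call without replicates 2 or 3 of day 2 or replicates 1 or 3 of day 28 (adjusted p 0.068 to 0.107), and the labelled knockout's without replicate 3 of day 2 (adjusted p = 0.0785). With no array left out, the labelled wild type's day 10 call was lost with no filter (adjusted p = 0.059), after a further quantile normalization (adjusted p = 0.0701) and with only the 2 groups fitted (adjusted p = 0.0544). Its day 28 call was lost with each array centred on its median (adjusted p = 0.0536) and after a further quantile normalization (adjusted p = 0.0799). The labelled knockout's day 28 call was lost with only the 2 groups fitted (adjusted p = 0.0727) and with both Pdk1 clusters averaged, where the difference was 0.35 (adjusted p = 0.0904), while the same averaging brought its day 10 difference past the threshold (0.48, adjusted p = 0.0326). The second Pdk1 cluster lay at 1.48 to 2.71, below the median of every array, so the averages include a cluster of very low signal.

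Pdk4, the fasting-responsive kinase, was widely spread between replicates on every day. In the labelled wild type it was at 7.03, 7.92 and 8.41 on day 2, 7.54, 8.24 and 8.75 on day 5, 7.33, 7.79 and 8.26 on day 10 and 8.04, 8.83 and 8.71 on day 28. In the labelled knockout it was at 7.43, 7.16 and 8.10, at 7.99, 7.11 and 7.99, at 8.18, 7.21 and 8.01, and at 8.13, 7.56 and 7.89. Replicate 1 was the lowest on all 4 days in the labelled wild type, and replicate 2 in the labelled knockout. The day 28 difference was 0.74 (95% interval -0.06 to 1.53, adjusted p = 0.136) in the labelled wild type and 0.30 (adjusted p = 0.578) in the labelled knockout. No Pdk4 comparison passed in the fit without a replicate block. With the block, day 28 of the labelled wild type passed against day 2 (adjusted p = 0.00234) and day 10 (adjusted p = 0.037). Over all tested genes, deviations of same-numbered arrays correlated at 0.047 to 0.117 and -0.054 to 0.205 in those comparisons. They were not taken as paired, as not every pair was above 0.1. That rule reads all genes and does not speak of Pdk4 alone.

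**Figure D2:**
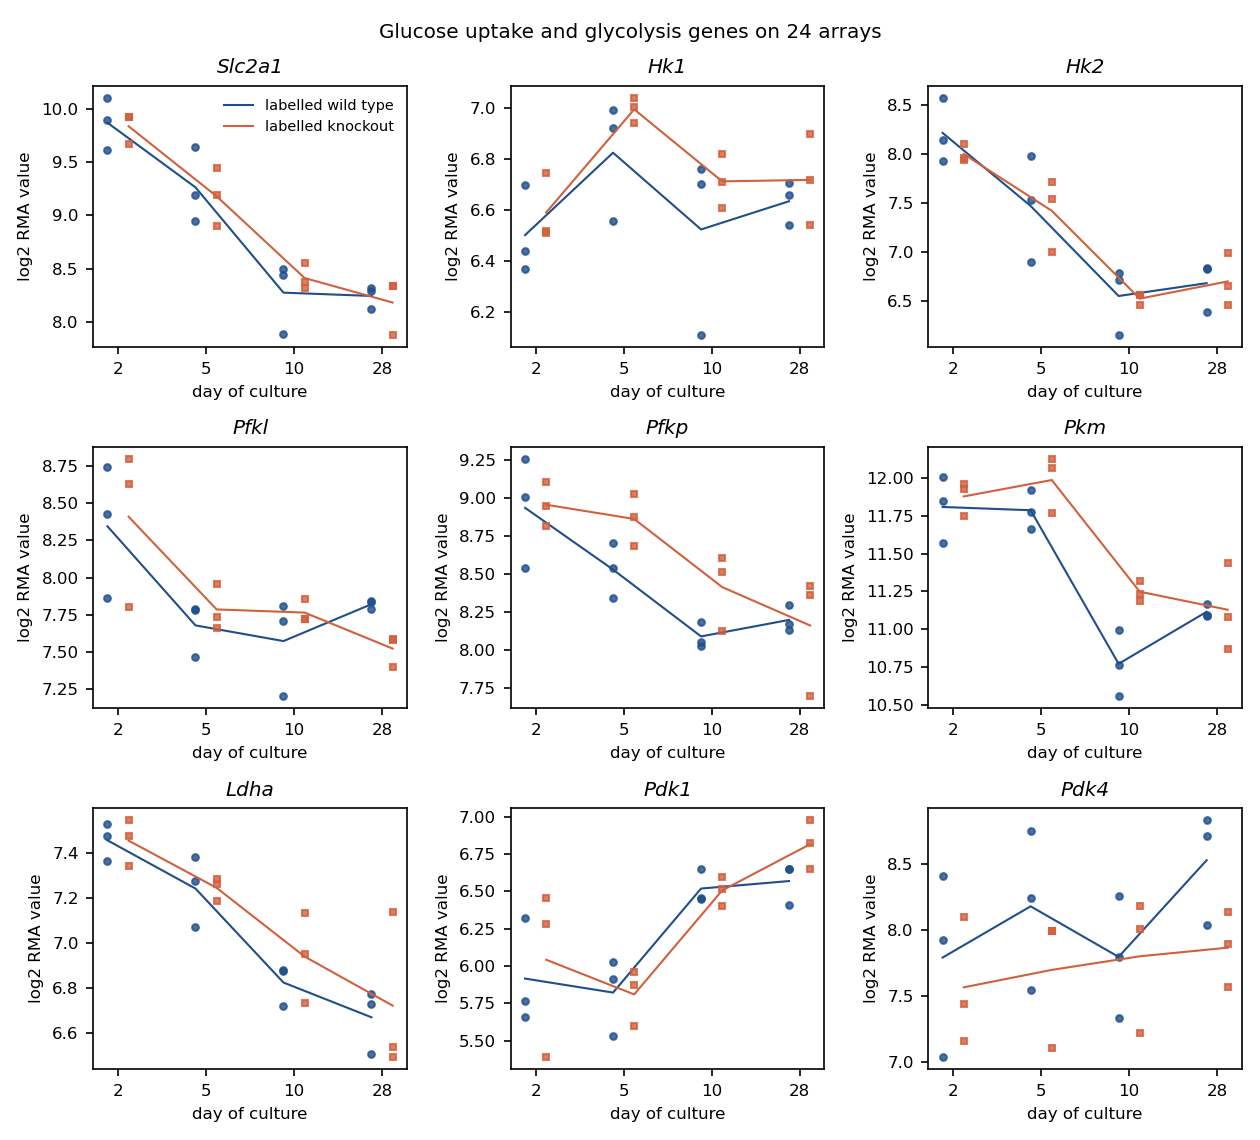
Log2 RMA value (y axis, a scale of its own for each gene) against day of culture (x axis, days evenly spaced) for the 9 genes, with 1 point for each array of the labelled wild type (blue circles) and the labelled knockout (orange squares) and lines through the means of 3. The day 10 and day 28 points of Slc2a1, Hk2 and Pkm lie below all their day 2 points, those of Pdk1 on day 28 lie above, and Pdk4 shows 3 widely spread points at each day.

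On day 5, 2 days after the medium changed, 0 of the 9 genes were called in either genotype, where 5.55% of all genes were called in the labelled wild type and 2.77% in the labelled knockout. At an unadjusted p under 0.05 there were 4 of 9 in each. The share of all genes at that unadjusted threshold was not worked out, here or below, so such counts have no background to be read against. In the labelled wild type these were Slc2a1, Hk2, Pfkl and Pfkp, all lower. In the labelled knockout Slc2a1, Hk2 and Pfkl were lower and Hk1 was higher, by 0.40 (adjusted p = 0.206, and 0.029 with array weights). Slc2a1 was at -0.61 (adjusted p = 0.0802) in the labelled wild type and -0.66 (adjusted p = 0.0829) in the labelled knockout, and Pkm was at -0.02 and 0.11. The timing of one gene was not tested against that of another. Same-numbered arrays of days 2 and 5 deviated together in each genotype, and with the replicate number as a block Slc2a1 passed in both (adjusted p = 0.039 and 0.0411) and Hk2 in the labelled wild type (adjusted p = 0.0145). Without replicate 3 of day 5, Slc2a1 (adjusted p = 0.0219) and Hk2 (adjusted p = 0.0199) also passed in the labelled wild type. Pfkl passed on leaving out replicate 3 of day 2, in the labelled wild type (adjusted p = 0.0282) and the labelled knockout (adjusted p = 0.0251).

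From day 5 to day 10, Slc2a1 fell by 0.99 (adjusted p = 0.00297), Hk2 by 0.92 (adjusted p = 0.0201) and Pkm by 1.02 (adjusted p = 0.00023) in the labelled wild type, and Pdk1 rose by 0.70 (adjusted p = 0.0465). Here 10.5% of all genes were called (4.46% lower, 6.02% higher). With the replicate block Pfkp passed as well (adjusted p = 0.0458). In the labelled knockout, with a background of 4.76% (2.18% lower), Slc2a1 fell by 0.77 (adjusted p = 0.0297), Hk2 by 0.89 (adjusted p = 0.04) and Pkm by 0.74 (adjusted p = 0.00807). The Slc2a1 and Pkm calls of the labelled wild type held with any array left out, though that of Slc2a1 was lost when only days 5 and 10 were fitted (adjusted p = 0.0502), while its Hk2 call was lost with only those days fitted (adjusted p = 0.118) and without replicates 2 or 3 of day 5 or replicate 1 of day 10 (adjusted p 0.0536 to 0.139). Its Pdk1 call was lost without any array except day 5 replicate 2 (adjusted p 0.0691 to 0.211) and under 4 other settings (adjusted p up to 0.0656). The labelled knockout's Hk2 call was lost without any array except day 5 replicate 3 (adjusted p 0.0682 to 0.189), and its Slc2a1 call without replicates 1 or 2 of day 5 or replicates 2 or 3 of day 10 (adjusted p 0.104 to 0.158). The labelled knockout's Pkm call was lost without replicate 1 of day 5 (adjusted p = 0.0703). With only days 5 and 10 fitted, the calls of Slc2a1 (adjusted p = 0.0913), Hk2 (adjusted p = 0.0936) and Pkm (adjusted p = 0.0726) in the labelled knockout were all lost, that of Slc2a1 also with its clusters averaged (adjusted p = 0.0667) and that of Hk2 with no filter (adjusted p = 0.056). From day 10 to day 28 limma called 0 of 9 genes in either genotype, where 1.02% and 1.65% of all genes were called. At an unadjusted p under 0.05 there were 1 and 0 of the 9.

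Between the labelled genotypes none of the 9 genes passed. At each of days 2, 5, 10 and 28, and as the mean over days, limma called 0 of 9, and at an unadjusted p under 0.05 there were 0, 0, 1 and 0 on those days and 1 for the mean. Over all genes 0.00672%, 0.00672%, 0.0336%, 0.228% and 0.188% were called, which is by adjusted p and no background for the unadjusted counts. The gene behind both unadjusted values was Pkm, which on day 10 was 0.48 higher in the labelled knockout (95% interval 0.16 to 0.79, adjusted p = 0.394), with its 3 arrays at 11.19 to 11.32 all above the labelled wild type's at 10.56 to 10.99, a separation upward that 1 of the 9 genes and 6.02% of all tested genes had on that day. As the mean over days Pkm differed by 0.19 (adjusted p = 0.451). Slc2a1 differed by -0.01 as the mean over days, with a 95% interval of -0.22 to 0.19, and Hk2 by -0.07, with an interval of -0.32 to 0.19. Both intervals take the arrays of a genotype as independent. Same-numbered arrays of a genotype had a consensus correlation of 0.158 over days, so the intervals may be too narrow. The widest difference on day 28 was that of Pdk4, -0.66 with an interval of -1.46 to 0.13 (adjusted p = 0.938). The change from day 2 differed between the genotypes for 0 of 9 genes on days 5, 10 and 28, with 0 at an unadjusted p under 0.05 each time, where 0%, 0% and 0.00672% of all genes were called. For Slc2a1 on day 28 the difference of the changes was -0.03, with an interval of -0.61 to 0.55.

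Markers of other cells and of dividing cells moved over the same days. The mean level of the 10 adipocyte markers was 4.67 to 4.94 on day 2 and 9.73 to 9.84 on day 28 in the labelled wild type, and 4.56 to 5.01 and 8.15 to 8.56 in the labelled knockout, and 10 of 10 were called higher on day 28 in each. The 12 macrophage markers went from 4.86 to 4.96 on day 2 to 8.29 to 9.32 on day 28 in the labelled wild type and from 4.85 to 5.64 to 7.30 to 10.76 in the labelled knockout, with 12 of 12 higher in each. The 7 cell division genes went from 8.62 to 9.38 down to 6.25 to 7.92, and from 8.52 to 9.46 down to 6.42 to 7.04, with 7 of 7 lower in each. Of 8 osteoblast markers, 3 were higher and 1 lower on day 28 in the labelled wild type, and 5 were higher in the labelled knockout. The part of these changes in the fall of the glycolysis genes was not tested.

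**Figure D3:**
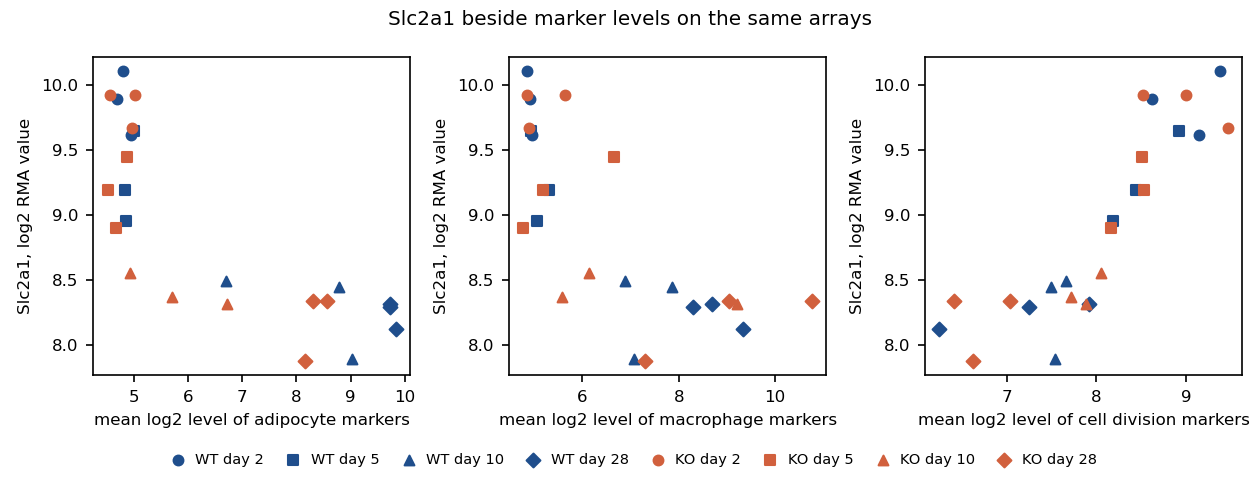
Log2 RMA value of Slc2a1 (y axis) against the mean log2 value of 10 adipocyte, 12 macrophage and 7 cell division markers (x axes) on the same 24 arrays, coloured by labelled genotype (WT wild type, KO knockout) and shaped by day. The day 10 and day 28 arrays, with Slc2a1 at 7.88 to 8.55, have adipocyte markers at 4.93 to 9.84, macrophage markers at 5.59 to 10.76 and cell division markers at 6.25 to 8.05.

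The other genes of the pathway were read from lists of related genes, against the 38.8% (labelled wild type) and 38% (labelled knockout) of all genes called on day 28, about as many higher as lower. Among 8 other glucose transporters 4 were higher and 1 lower on day 28 in the labelled wild type (median log2 difference 0.18, against -0.03 over all genes), and 4 higher and 0 lower in the labelled knockout (0.22 against -0.02). Slc2a4, which encodes the insulin-responsive GLUT4, was at 5.17, 4.74 and 4.63 on day 2 and at 6.53, 7.06 and 7.10 on day 28 in the labelled wild type, and at 4.84, 4.73 and 4.79 and then 5.77, 5.68 and 6.31 in the labelled knockout. The day 28 arrays were all above the day 2 arrays. It rose by 2.05 (adjusted p = 2.48e-06) and by 1.13 (adjusted p = 0.00116), beside the rise of the adipocyte markers, whose part in it was not tested. The change of Slc2a4 did not pass the test of a difference between genotypes (-0.92, adjusted p = 1). Slc2a12, which encodes the transporter GLUT12, rose by 1.19 (adjusted p = 0.000857) and 1.40 (adjusted p = 0.000214).

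Of 14 other glycolytic enzymes, 5 were lower and 1 higher on day 28 in the labelled wild type (median -0.25), and 5 lower and 3 higher in the labelled knockout (median -0.15). Pgk1, the phosphoglycerate kinase that makes ATP in the pathway, was at 11.27, 11.33 and 11.20 on day 2 and at 10.22, 10.34 and 9.94 on day 28 in the labelled wild type, and fell by 1.10 (adjusted p = 2.39e-06). The labelled knockout differed by -1.25 (adjusted p = 8.01e-07). Pgam1, the mutase of the next step, fell by 1.05 (adjusted p = 8.91e-06) and 0.90 (adjusted p = 5.55e-05). Eno2, the neuronal enolase, was higher by 1.16 (adjusted p = 0.0134) and 0.92 (adjusted p = 0.0465), but the labelled knockout's call was lost on leaving out any of its 6 arrays (adjusted p 0.054 to 0.126) and under 3 other settings (adjusted p up to 0.116) and the labelled wild type's without replicate 3 of day 2 (adjusted p = 0.0861). Hk3, the hexokinase of blood cells, was higher by 1.78 in the labelled knockout (adjusted p = 0.00492). Fitted on days 2 and 28 of that genotype alone, the call was lost (adjusted p = 0.0823). Its day 28 arrays there stood at 6.04, 7.84 and 4.77, and the macrophage markers at 9.05, 10.76 and 7.30. In the labelled wild type the macrophage markers rose too, and the 1 enzyme called higher was Eno2. The part of the macrophage markers in the Hk3 difference was not tested.

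Of 4 enzymes that make or remove the sugar phosphate that activates phosphofructokinase, 1 was higher and 1 lower in each genotype on day 28. Pfkfb3, which makes it, rose by 1.10 (adjusted p = 6.88e-05) and 0.79 (adjusted p = 0.00148). Tigar, which removes it, fell by 0.88 (adjusted p = 2.98e-05) and 0.68 (adjusted p = 0.000415).

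Lactate and pyruvate handling showed falls and rises side by side. Of 7 genes, 4 were higher and 1 lower on day 28 in the labelled wild type (median 0.57), and 3 higher and 1 lower in the labelled knockout (median 0.18). Slc16a3, which encodes the lactate exporter MCT4, was at 7.66, 7.80 and 6.04 on day 2 and 4.94, 5.31 and 5.32 on day 28 in the labelled wild type. Labelled knockout arrays stood at 7.51, 7.82 and 6.28 and then 5.07, 5.65 and 5.32. Replicate 3 of day 2 was low in both genotypes, and still above day 28. Slc16a3 fell by 1.98 (adjusted p = 0.000923) and 1.86 (adjusted p = 0.00163). Ldhb, the lactate dehydrogenase subunit of oxidative tissues, was at 6.66, 6.63 and 6.69 on day 2 and at 8.06, 7.96 and 7.71 on day 28 in the labelled wild type, a rise of 1.25 (adjusted p = 5.3e-06) while Ldha fell. The labelled knockout's Ldhb rose by 0.48 (adjusted p = 0.0228), and that call was lost without replicate 3 of day 2 (adjusted p = 0.2) or replicate 2 of day 28 (adjusted p = 0.0683) and under 4 other settings (adjusted p up to 0.12). The difference of these changes did not pass (-0.77, adjusted p = 0.868). Slc16a7, which encodes the monocarboxylate carrier MCT2, rose by 0.80 in the labelled knockout (adjusted p = 0.00251). In the labelled wild type it was not among the 4 largest called changes of its list on day 28. It was called higher there on day 10, by 0.54 (adjusted p = 0.038). That day 10 call was lost under 3 other settings and on leaving out any 1 of 4 arrays.

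**Figure D4:**
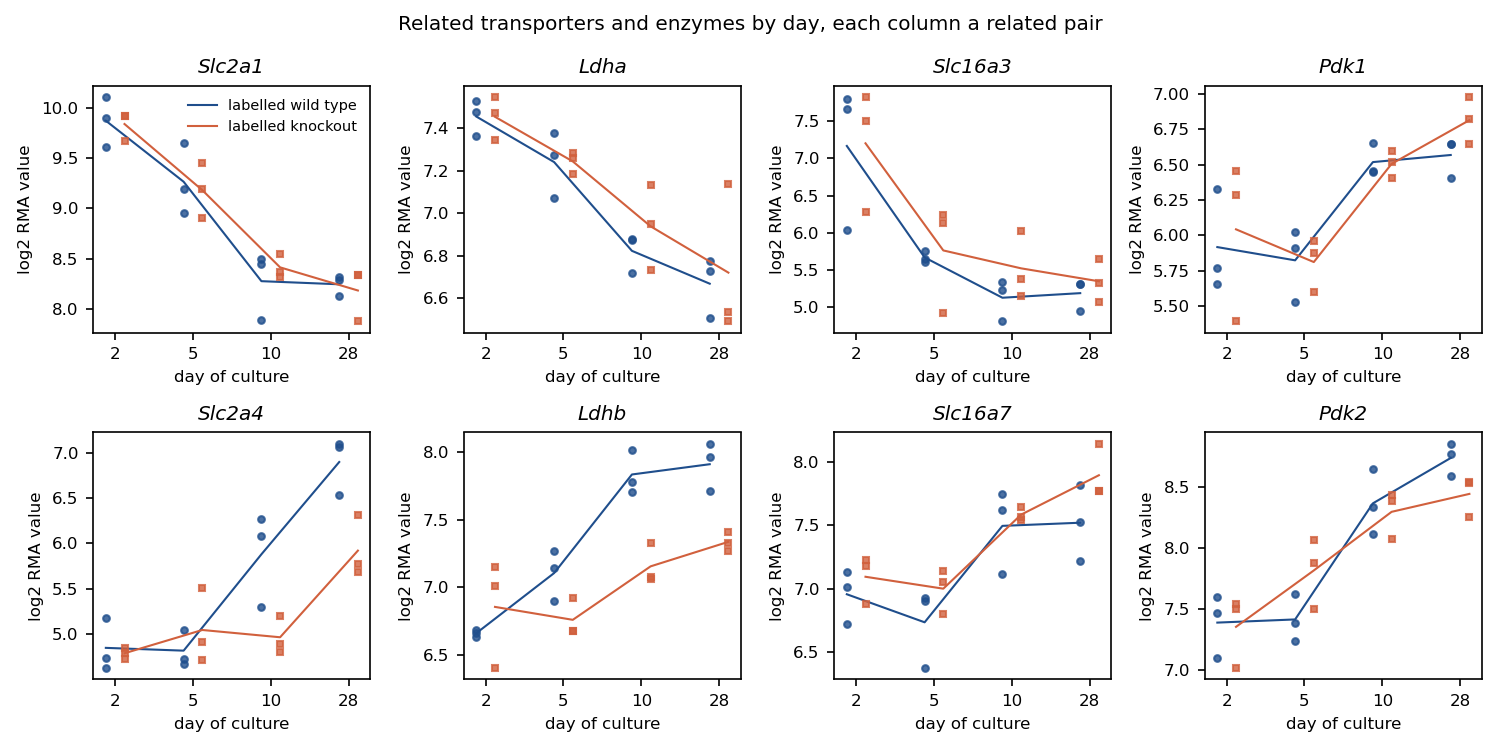
Log2 RMA value (y axis, a scale of its own for each gene) against day of culture (x axis, days evenly spaced) for 4 related pairs, 1 pair a column, with 1 point for each array (labelled wild type blue circles, labelled knockout orange squares) and lines through the means of 3. Slc2a1, Ldha and Slc16a3 run downward above their rising relatives Slc2a4, Ldhb and Slc16a7, while Pdk1 and Pdk2 are both higher on day 28 than on day 2.

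At the pyruvate dehydrogenase complex, 3 of 10 genes were higher and 0 lower on day 28 in the labelled wild type (median 0.09), and 2 higher and 3 lower in the labelled knockout (median 0.06). The shares called, 30% and 50%, stood on either side of those over all genes, 38.8% and 38%. Pdk2, another kinase of the complex, rose by 1.34 (adjusted p = 1.1e-05) and 1.09 (adjusted p = 0.000121). Pdp1, the phosphatase that undoes the kinases' work, rose by 1.83 (adjusted p = 1.28e-07) and 2.02 (adjusted p = 8.37e-08). These 4 calls of Pdk2 and Pdp1 held under every alternative setting, whereas those of Pdk1 did not.

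Of 5 gluconeogenesis genes, 2 were higher and 1 lower in each genotype on day 28. Pcx, pyruvate carboxylase, rose by 2.42 (adjusted p = 1.8e-07) and 1.45 (adjusted p = 6.71e-05), and Pck1, the cytosolic phosphoenolpyruvate carboxykinase used in fat for glycerol synthesis, by 3.44 (adjusted p = 1.8e-07) and 1.56 (adjusted p = 0.00088). Pck2, the mitochondrial form, fell by 1.62 (adjusted p = 0.000173) and 1.52 (adjusted p = 0.000332). Of 10 glycogen genes, 6 were higher and 2 lower in the labelled wild type (median 0.60) and 5 higher and 2 lower in the labelled knockout (median 0.52), with the phosphorylase Pygb up by 1.20 (adjusted p = 1.52e-05) and 0.93 (adjusted p = 0.000248). The synthase Gys1 was called lower on day 28 in each genotype, by 1.24 in the labelled knockout (adjusted p = 6.28e-07). Its day 10 difference from day 2 was -0.90 in the labelled wild type (adjusted p = 2.91e-05). The labelled knockout's was -0.99 (adjusted p = 2.06e-05). Of 6 pentose phosphate genes, 1 was lower in the labelled wild type and 0 were called in the labelled knockout, with 0 at an unadjusted p under 0.05 by limma.

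Other genes known to answer to hypoxia-inducible factor were called about as often as genes in general, 35.7% in each genotype against 38.8% and 38% of all genes. Of 14, 3 were higher and 2 lower on day 28 in the labelled wild type (median -0.11), and 2 higher and 3 lower in the labelled knockout (median -0.21). Vegfa, the angiogenic growth factor, was at 10.04, 10.16 and 9.90 on day 2 and at 8.56, 8.79 and 8.36 on day 28 in the labelled wild type, and fell by 1.46 (adjusted p = 0.0011) and by 1.70 in the labelled knockout (adjusted p = 0.000288). Ndrg1, a stress-responsive gene of differentiating cells, rose by 1.91 (adjusted p = 4.93e-06) and 1.86 (adjusted p = 9.63e-06). Of 6 subunits and regulators of the factor, 2 were higher in the labelled wild type and 1 in the labelled knockout. Epas1, which encodes the HIF-2α subunit, rose by 2.41 (adjusted p = 5.66e-06) and 2.66 (adjusted p = 2.62e-06).

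Genes known to rise in fasting or with PPAR activity, as Pdk4 is, were called in 69.2% of cases in the labelled wild type, against 38.8% of all genes, and in 46.2% against 38% in the labelled knockout. Of 13, 7 were higher and 2 lower on day 28 in the labelled wild type (median 0.61), and 5 higher and 1 lower in the labelled knockout (median 0.33). Angptl4, an inhibitor of lipoprotein lipase, rose by 3.32 (adjusted p = 1.64e-07) and 2.54 (adjusted p = 4.93e-06), and Ppargc1a, a coactivator of mitochondrial genes, by 3.06 (adjusted p = 6.22e-07) and 2.42 (adjusted p = 1.28e-05). Txnip, which curbs glucose uptake and is itself induced by glucose, went from 9.50, 10.12 and 9.69 on day 2 to 11.45, 11.62 and 11.72 on day 28 in the labelled wild type, a rise of 1.83 (adjusted p = 3.79e-06), and rose by 1.75 (adjusted p = 8.49e-06) in the labelled knockout.

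**Figure D5:**
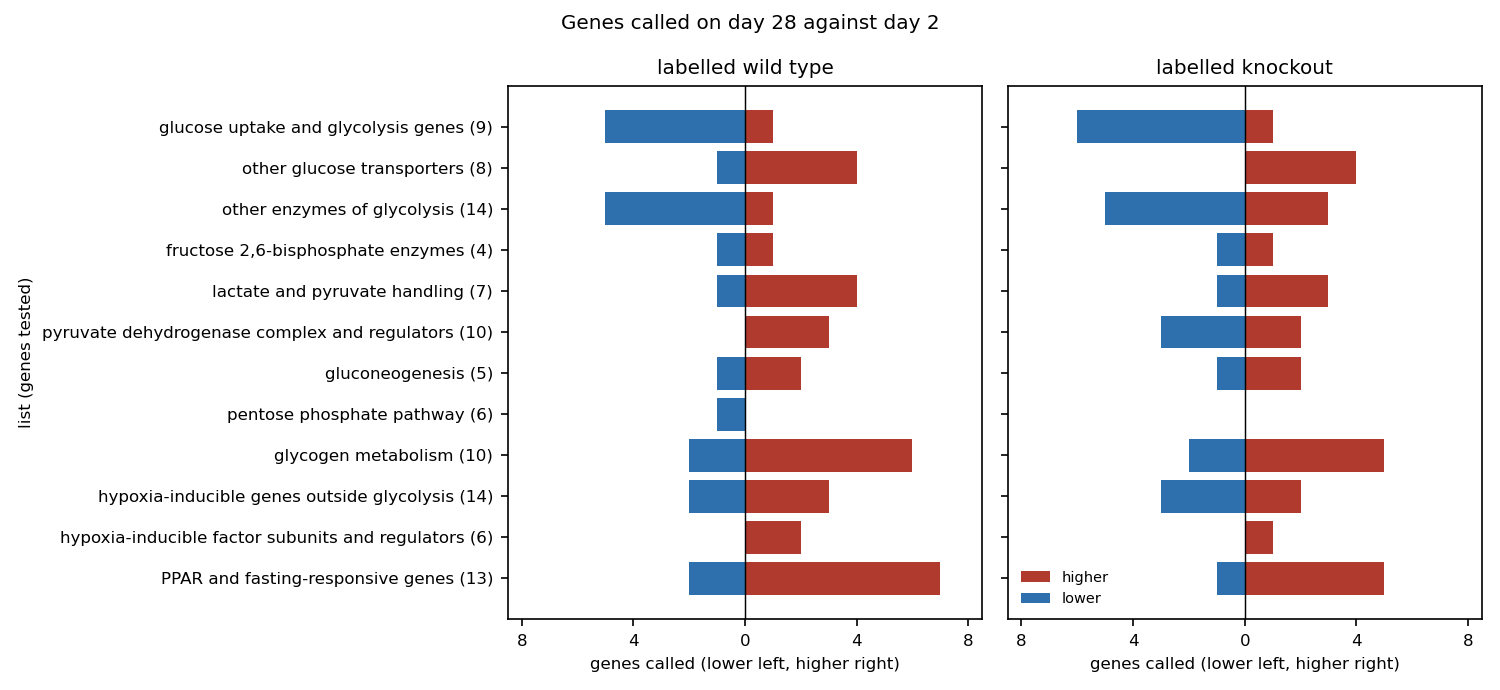
Number of genes called lower (blue, left) or higher (red, right) on day 28 against day 2 in the labelled wild type and the labelled knockout (x axis), for the 9 uptake and glycolysis genes and 11 lists of related genes (y axis, with the number of genes tested in brackets); called means a limma adjusted p under 0.05. Lower calls outnumber higher ones for the uptake and glycolysis genes (5 against 1 and 6 against 1) and the other glycolysis enzymes, and higher calls outnumber lower ones for the other transporters, glycogen and PPAR lists.

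Symbols of predicted or unnamed genes were left out of the search for genes with like values. Across the 24 arrays, which share day and genotype, the remaining tested gene closest to Slc2a1 was Txnrd1 (Pearson r = 0.972, thioredoxin reductase). Next came Ctps (0.972) and Mical2 (0.97). For Hk2 they were Taf5l (0.955), Slc2a1 itself (0.953) and Nav2 (0.952). For Ldha, Pgk1 led (0.938), followed by Eif6 (0.931) and Bop1 (0.926), and for Pkm, Rtn4 (0.947), Lrp8 (0.939) and Msn (0.936). Reps1 (0.93) was nearest to Pfkp, B4galnt2 (0.87) to Pfkl, Edem3 (0.903) to Hk1 and Txndc16 (0.924) to Pdk1. Pdk4 had no close companion among the genes searched. Its nearest were H6pd (0.773), the hexose-6-phosphate dehydrogenase of the endoplasmic reticulum, Ermp1 (0.691) and Ano10 (0.688). Among the 9 genes, Slc2a1 and Hk2 ran together and Ldha ran with Slc2a1 (0.889) and against Pdk1 (-0.731), while Hk1 ran with neither (0.1 with Slc2a1). These values describe the arrays and were not tested.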

How the data were processed

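RNA of 24 samples was measured on Affymetrix Mouse Gene 2.0 ST arrays. The authors deposited log2 values, 1 per transcript cluster and array, which RMA summarised in the program Affymetrix Expression Console, as the labels' processing notes name it. Its version is not given in the sources used here. Of 41345 clusters, 23521 had exactly 1 symbol in the platform annotation, 1814 had several and 16010 had none, and 23328 of the single-symbol clusters were matched to current symbols by gene identifier. For 1082 genes with several clusters the one with the highest mean was kept. The number of arrays, not a read depth, limits the precision.

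The model, in limma 3.58.1 under R 4.3.3, held the 8 group means and used every array, through lmFit and eBayes with 16 residual degrees of freedom, and gave two-sided p-values adjusted by Benjamini-Hochberg over 14892 genes. On data simulated for day 28 against day 2 of the labelled wild type with 14892 genes, 75 of 100 genes changed by 1 on the log2 scale were recovered, 96 of 100 changed by 2, and 8 unchanged genes were called. The simulated arrays had independent noise and few changed genes, whereas 38.8% of genes were called in the data. The shares recovered are therefore a check of the code and not the recovery rate in these data. The 9 genes, the lists and the tests were chosen with earlier results of these data known. Besides the 9 genes, the text names up to 4 genes a list with the largest called change on day 10 or 28. For each of the 9 genes it also names those with the highest Pearson correlation, symbols of predicted or unnamed genes left out.

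Same-numbered arrays were taken as paired where the deviations from the group means of every pair correlated above 0.1. This held for day 5 against days 2 and 10 in both genotypes (0.15 to 0.63) and for every comparison of days in the labelled knockout, but not for days 10 or 28 against day 2 or for day 28 against day 10 in the labelled wild type (lowest -0.05), or between genotypes. The replicates are labelled as separate preparations, and the pairing comes from the data. Alternatives were other filters, scalings, array weights, priors, cluster choices, fits of only the compared groups, replicate blocks and leaving out each array. Promoter windows were searched on both strands.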

Additional observations from a re-analysis of the deposited data

How the results depend on the processing

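Over 1440 refits of the 9 genes under other settings, 1398 kept their side of the threshold, 24 lost a call, 18 gained one and 0 reversed. Over 1296 refits without 1 array, 1247 kept their side, 43 lost a call, 6 gained one and 0 reversed. Reversal was looked for only where the main fit or the refit made a call. Differences not called in either fit could change sign and still count as kept. The number of the 9 genes called on day 5 in the labelled wild type went from 0 to 1 with array weights and to 2 with the replicate block. In the labelled knockout on day 5 it went from 0 to 1 with arrays centred on their medians, 3 with array weights and 1 with the replicate block. From day 5 to day 10 it went to 1 in the labelled wild type and 0 in the labelled knockout when only the 2 groups compared were fitted. The replicate block called Pdk4 on day 28 of the labelled wild type against day 2 (adjusted p = 0.00234). It also called Pdk4 against day 10 (adjusted p = 0.037, a count of 1 in place of 0). In both comparisons the numbers did not pair the arrays by the rule, which reads all tested genes. The blocks changed no other count of called genes by over 1.5 times. Causes were not tested. With 1 array left out, the counts ranged in the labelled wild type from 0 to 2 (day 5 against 2), 5 to 6 (10 against 2), 5 to 6 (28 against 2), 2 to 3 (10 against 5) and 0 to 0 (28 against 10). In the labelled knockout they ranged from 0 to 1, 4 to 4, 6 to 7, 0 to 3 and 0 to 0, and between genotypes and for differences of change from 0 to 0. Centring each array moved the median difference of all genes on day 28 from -0.03 to -0.16 in the labelled wild type and from -0.02 to -0.12 in the labelled knockout. Of 1246 refits of the named pathway genes under other settings, 55 lost a call and 0 reversed.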
